A study of Homo sapiens with 4 samples.

Results

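The genes of fibroblast growth factor (FGF) signalling were followed in human embryonic stem cells that had been differentiated to heart cells with or without retinoic acid (RA). The members were the protein-coding genes named FGF or FGFR with a number, FGFRL1, SPRY1 to SPRY4, SPRED1 to SPRED3, DUSP6, ETV4 and ETV5. They came to 37 of the 60234 genes in the count table: 22 FGF genes, of which 15 encode paracrine ligands, 3 endocrine ligands and 4 intracellular proteins, then 5 receptors and 10 feedback or target genes. RNA was sequenced from NKX2.5:GFP hESCs, a single reporter line in which GFP is made from the NKX2-5 locus, a gene of early heart cells, and all 4 libraries carry this reporter. Cells were differentiated as spin embryoid bodies and received either RA at 1 µM (RA) or the solvent DMSO (CTR) from day 4 to day 7. At day 31 by the series record, where the study's procedures name a slightly earlier day, each culture was split by sorting into a GFP-positive and a GFP-negative fraction, which gave 4 conditions with 1 library each. RA and CTR were separate cultures, so that treatment and culture cannot be told apart.

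With 1 library per condition there was no replicate error and no test between conditions. Levels are CPM, the reads of a gene per 1000000 reads of the library after scaling of the library sizes, and differences are those of log2(CPM + 1), which understate the change of genes with few reads. A member is called higher or lower here where this difference was at least 1, a 2-fold limit, counting only genes that reached 1 CPM in at least 1 of the libraries compared. Folds are ratios of CPM, and the range in brackets after a fold or ratio is its 95% interval, which covers counting error only. Libraries held 26222787 to 28643091 reads on genes, except that of CTR GFP-negative cells, which held 4371101. There, the floor of 3 reads lay at 0.639 CPM, against 0.105 to 0.117 CPM in the others.

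FGF ligands are secreted proteins that bind receptor tyrosine kinases together with heparan sulfate, and the activated receptors signal mainly through RAS and the kinase ERK. ERK activity switches on the transcription factors ETV4 and ETV5 and also the inhibitors that end the signal, namely the sprouty proteins (SPRY), the SPRED proteins and the phosphatase DUSP6, which is why their transcripts are commonly read as a sign of the pathway's activity. In the embryo, FGF8 and FGF10 mark the progenitors of the second heart field, and FGF9 and FGF16 act on growing heart muscle.

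The 2 sorted fractions differed in their cell type markers. Transcripts of 6 cardiomyocyte genes summed to 14500.2 and 15603 CPM in RA and CTR GFP-positive cells and to 362 and 736 CPM in GFP-negative cells. The 8 mesenchyme markers, all with reads in every library, summed to 15088 and 3908 CPM in GFP-positive cells and to 61543 and 32182 CPM in GFP-negative cells, and were thus 3.86-fold higher with RA among GFP-positive cells. These sums are mostly COL1A1, COL1A2 and COL3A1, and the markers did not all follow them: with RA the GFP-positive level was 7.42% of the GFP-negative level for LUM and 213% for PDGFRA. Gut and liver endoderm markers, 8 genes, summed to 933 CPM in RA GFP-negative cells against 30.95 to 151 CPM elsewhere, with FOXA1, FOXA2, HNF4A and CDX2 at 0 in CTR GFP-positive cells and FOXA2 at 0 in CTR GFP-negative cells. Eye and neural markers, also 8 genes, summed to 303 CPM in CTR GFP-negative cells against 15.7 to 44.8 CPM elsewhere. The 3 pluripotency markers summed to 2.21 and 0.244 CPM in RA and CTR GFP-positive cells and to 27.1 and 2.13 CPM in GFP-negative cells, highest in RA GFP-negative cells, with NANOG at 0 in both CTR libraries and POU5F1 at 0 in CTR GFP-negative cells. In bulk RNA, fewer cells of a type and less RNA per cell cannot be told apart.

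With the study's limit of 4 reads, 29 of the 37 members were detected in each GFP-positive library, 32 in RA GFP-negative cells and 28 in CTR GFP-negative cells. Thinned to the depth of the smallest library, 24 members were detected in RA and 22 in CTR GFP-positive cells, and 27 in RA GFP-negative cells. At least 1 CPM in some library was reached by 28 members. The other 9 were FGF4, FGF6, FGF14, FGF16, FGF17, FGF20, FGF21, FGF22 and SPRY3, with at most 24 reads in a library. FGF4 and FGF6 had no read at all, and the highest level among the 9 was the 0.935 CPM of FGF17 in RA GFP-negative cells. FGF16 was seen in GFP-positive cells alone, with 8 reads with RA and 5 without, a level below the floor of the CTR GFP-negative library.

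**Figure D1:**
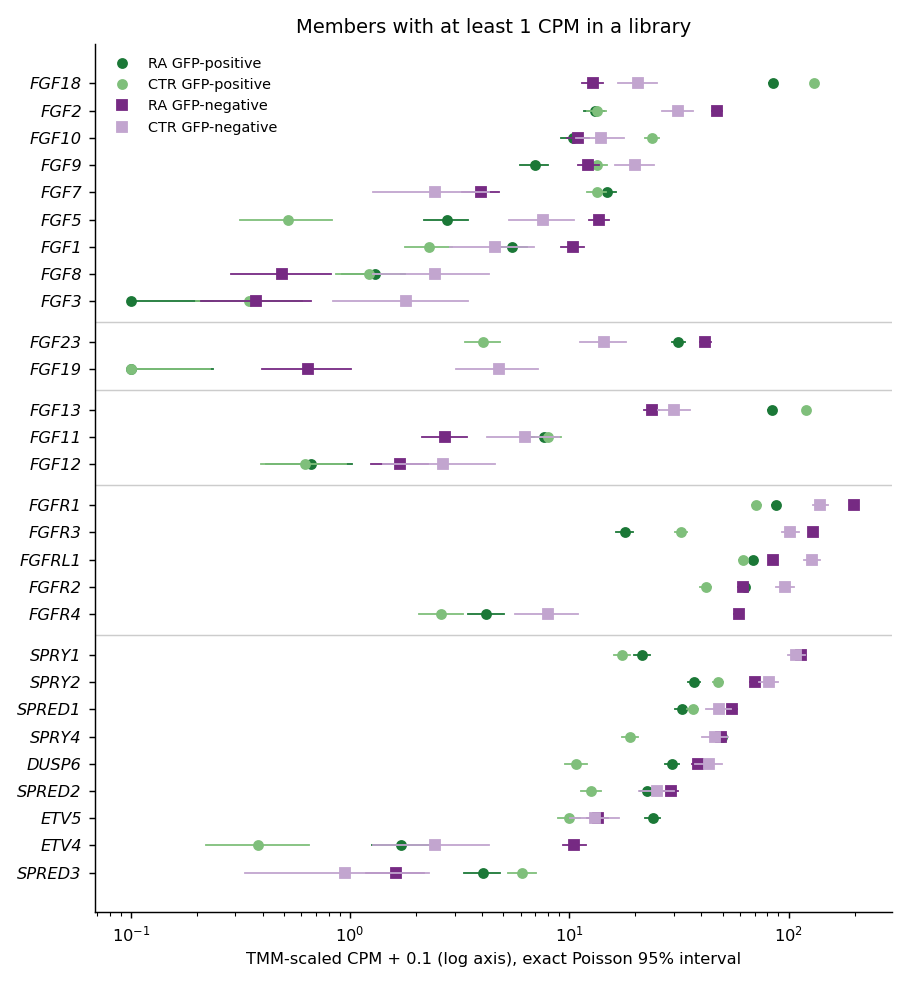
Level of each member that reached 1 CPM in some library, in CPM on a log axis with a small offset added so that 0 can be drawn. Points are the 4 libraries, lines are exact Poisson 95% intervals, and grey rules separate paracrine ligands, endocrine ligands, intracellular FGFs, receptors and feedback genes. The 2 GFP-positive libraries lie to the right for FGF18, FGF13 and FGF7, and the 2 GFP-negative ones for FGFR3, FGFR4, SPRY1 and FGF2.

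GFP-positive cells differed from GFP-negative cells in many members. In CTR, 18 of the 28 members with at least 1 CPM differed by 2-fold or more, 4 higher and 14 lower in GFP-positive cells, where 31.1% of all 18786 genes did (14.1% higher and 17.0% lower). Among protein-coding genes, the class of every member, this share was 29.3%, with 11.9% higher and 17.4% lower. The median log2 difference of the members was -0.99, against 0.03 for all genes. With RA, 11 of 26 members differed, 4 higher and 7 lower, where 24.3% of all 18111 genes did (10.2% higher and 14.1% lower) and 24.6% of the protein-coding ones (8.95% higher and 15.6% lower). The median was -0.39 against 0.01. In both cultures FGF7, FGF13 and FGF18 were higher in GFP-positive cells, and FGF2, FGF5, FGFR3, FGFR4, SPRY1 and ETV4 were lower. The share of all genes called alike in both cultures was not counted.

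Between RA and CTR fewer members differed. In GFP-positive cells, 7 of 25 members passed the limit, 6 higher and 1 lower with RA, where 7.21% of all 17465 genes did (5.09% higher and 2.12% lower) and 7.49% of the protein-coding ones (5.74% higher and 1.75% lower). The median was 0.15 against 0.01 for all genes. In GFP-negative cells, 7 of 28 members passed it, 4 higher and 3 lower, where 16.3% of all 18642 genes did (8.69% higher and 7.61% lower) and 13.8% of the protein-coding ones (8.66% higher and 5.10% lower). Here the median was 0.05 against 0.04. This split became 3 higher and 4 lower when libraries were scaled by their size alone. Higher with RA in both fractions were FGF23 and ETV4, and no member was lower in both. The share of all genes called alike in both fractions was not counted. FGF9, SPRY2, SPRED1 and SPRED2 passed the limit in none of the 4 comparisons with the scaling and full depth used here. In thinned libraries FGF9 did so between RA and CTR in GFP-positive cells (-1.34). Each library enters 2 of the 4 comparisons, so that these are not independent of each other.

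**Figure D2:**
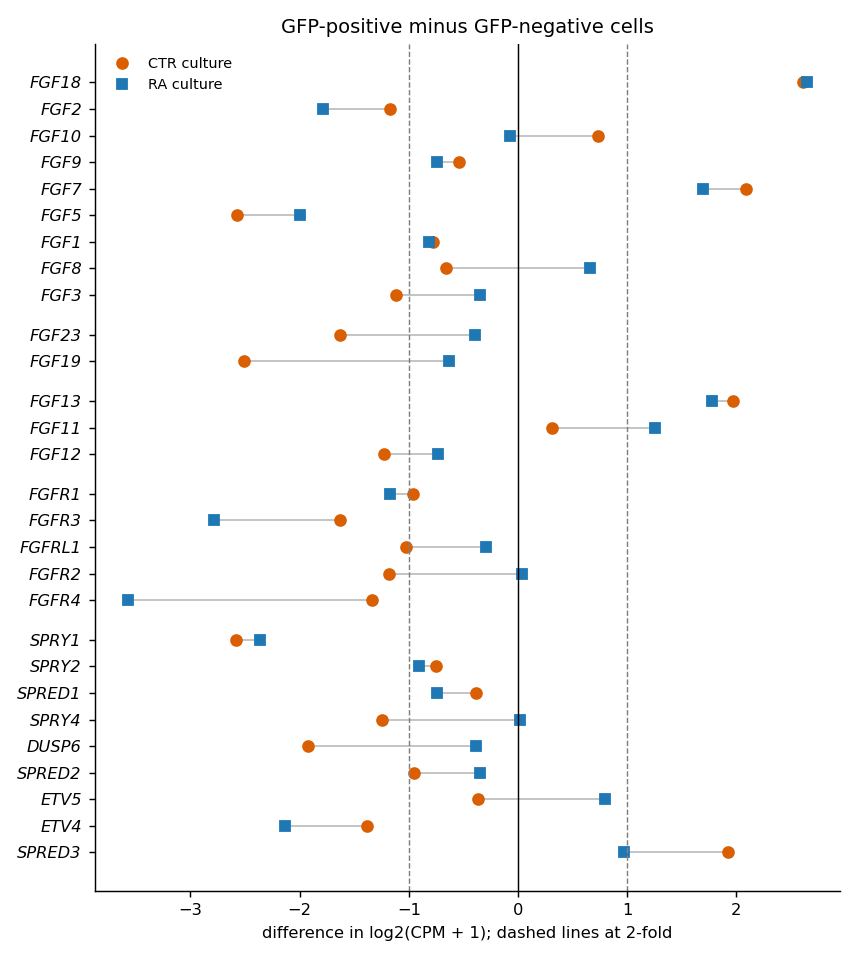
Difference of log2(CPM + 1) between GFP-positive and GFP-negative cells for the 28 members with at least 1 CPM in some library, in the CTR (circles) and RA (squares) cultures, with dashed lines at the 2-fold limit. FGF18 has the largest positive difference in both (2.61 and 2.64), and FGFR4 the largest negative one with RA (-3.57).

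Among the secreted ligands, FGF18 had the highest level per kilobase of transcript in GFP-positive cells. This paracrine ligand (ENSG00000156427), known from skeletal and lung growth and located at chr5:170846651-170884630 of GRCh37, had 84.5 CPM in RA and 130.1 CPM in CTR GFP-positive cells, and 12.7 CPM in RA and 20.4 CPM in CTR GFP-negative cells. Both GFP-positive libraries lay above both GFP-negative ones. The level was 6.36-fold (5.20 to 7.88) higher in GFP-positive cells in CTR and 6.65-fold (5.92 to 7.497) higher with RA, while RA and CTR differed by less than 2-fold within either fraction (log2 differences of -0.62 and -0.65). Per kilobase of transcript, FGF18 made up 65.8% and 81.6% of the summed level of the 18 secreted ligands in RA and CTR GFP-positive cells, and 16.1% and 28.8% in GFP-negative cells.

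FGF7, the keratinocyte growth factor made by mesenchyme, was also higher in GFP-positive cells. Its levels were 14.7 CPM in RA and 13.2 CPM in CTR GFP-positive cells, and 3.86 CPM in RA and 2.34 CPM in CTR GFP-negative cells. The smallest of these values rests on 11 reads. It was higher by 5.65-fold (3.12 to 11.4) in CTR and by 3.81-fold (3.05 to 4.80) with RA. Pseudogene copies of FGF7 lie elsewhere in the genome, so that its reads may be undercounted where only unique alignments are kept.

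FGF10, a second heart field and lung ligand that is related to FGF7, was the only member lower with RA in GFP-positive cells. It had 10.3 CPM in RA and 23.7 CPM in CTR GFP-positive cells, and 10.9 CPM in RA and 13.8 CPM in CTR GFP-negative cells. The CTR GFP-positive library was the highest and the other 3 lay close together. In GFP-positive cells the CTR level was 2.31-fold (2.003 to 2.66) above the RA level, a log2 difference of -1.13 that ran from -1.20 to -0.87 under other scalings, pseudocounts and depths. FGF9 followed the same order in that fraction without passing the limit, with 6.84 CPM with RA and 13.3 CPM in CTR (log2 difference -0.87), and had 12.1 and 19.8 CPM in GFP-negative cells.

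FGF2 and FGF5 were higher in the GFP-negative fraction in both cultures. FGF2, the basic FGF that supports human pluripotent stem cells, had 12.9 CPM in RA and 13.2 CPM in CTR GFP-positive cells, and 47.2 CPM in RA and 31.1 CPM in CTR GFP-negative cells. Both GFP-negative libraries were above both GFP-positive ones, and the excess was 2.35-fold (1.93 to 2.85) in CTR and 3.64-fold (3.23 to 4.12) with RA. Of the exon bases of FGF2, 11.8% overlap NUDT6 on the opposite strand, and the counting ignored strand. FGF5, a regulator of hair growth, had 2.65 CPM in RA and 0.419 CPM in CTR GFP-positive cells, and 13.6 CPM in RA and 7.45 CPM in CTR GFP-negative cells. Its lowest value, in CTR GFP-positive cells, came from 12 reads, and RA GFP-positive cells exceeded it by 6.34-fold (3.41 to 12.8), a log2 difference of 1.37. With RA the GFP-positive level of FGF5 was 19.6% of the GFP-negative level, beside 24.5% for the mesenchyme markers, whose part in this difference was not tested.

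FGF1, the acidic FGF that binds all FGF receptors, passed the limit between RA and CTR in GFP-negative cells, narrowly. Its levels were 5.38 CPM in RA and 2.20 CPM in CTR GFP-positive cells, and 10.2 CPM in RA and 4.47 CPM in CTR GFP-negative cells. In GFP-negative cells the RA level was 2.29-fold (1.47 to 3.76) above CTR (log2 difference 1.04), and passed the limit in 2 of 7 alternatives. In GFP-positive cells the ratio of RA to CTR was 2.45 (1.81 to 3.35) and the log2 difference lay just under the limit.

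FGF8 and FGF3, which pattern the early brain, limb and ear, were sparse. FGF8 had 32 reads in each GFP-positive library, 10 in RA and 11 in CTR GFP-negative cells, and FGF3 had 0, 7, 7 and 8 reads in the same order of RA and CTR. Scaled for depth, both were lower with RA in GFP-negative cells, where the CTR level exceeded the RA level by 6.01-fold (2.32 to 15.8) for FGF8 and by 6.25-fold (1.98 to 20.2) for FGF3. Between fractions in CTR, FGF3 was lower in GFP-positive cells (log2 difference -1.12). For FGF8 the ratio of GFP-positive to GFP-negative cells was 0.477 (0.234 to 1.05) in CTR and 3.07 (1.47 to 7.00) with RA. Neither of these passed the limit, with log2 differences of -0.66 and 0.66. The CTR GFP-negative library is also the one with the highest eye and neural markers, and the part of these cells was not tested.

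The 3 endocrine ligands, which reach distant organs and need a klotho protein as coreceptor, differed from each other. FGF23, the phosphate-regulating hormone of bone, showed the largest RA difference of any member in GFP-positive cells. Located at chr12:4477393-4488878 of GRCh37 (ENSG00000118972), it had 31.4 CPM in RA and 3.94 CPM in CTR GFP-positive cells, and 41.7 CPM in RA and 14.3 CPM in CTR GFP-negative cells. CTR GFP-positive cells stood lowest and both RA libraries highest. The RA level was 7.96-fold (6.53 to 9.77) above CTR in GFP-positive cells (log2 difference 2.71) and 2.92-fold (2.28 to 3.795) above CTR in GFP-negative cells (1.48), and both passed the limit under all 7 alternatives of scaling, pseudocount and depth. In CTR the GFP-positive level was 27.6% of the GFP-negative one, and with RA it was 75.3%, and the sums of the mesenchyme, endoderm, eye and neural, endothelium and pluripotency markers stood at 24.5%, 9.72%, 35.1%, 6.23% and 8.13% of their RA GFP-negative sums. The part of these cells in the FGF23 level was not tested. TIGAR, the convergent neighbour that ends 8198 bases from FGF23, stood at 11.4, 9.25, 13.7 and 14.3 CPM in RA and CTR GFP-positive and RA and CTR GFP-negative cells, a narrower span than that of FGF23.

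KL, the klotho that FGF23 uses on its target cells, had 0 reads in 3 libraries and 42 reads (1.64 CPM) in RA GFP-negative cells. KLB, the coreceptor of FGF19 and FGF21, had at most 17 reads, also in RA GFP-negative cells. FGF19, the gut hormone that restrains bile acid synthesis, was not seen in either GFP-positive library and had 14 reads (0.546 CPM) in RA and 22 reads (4.69 CPM) in CTR GFP-negative cells. With the GFP-positive level set at the floor of 3 reads, it was 44.8-fold lower there in CTR and 4.86-fold lower with RA. The counting intervals of the ratios begin at 33.4-fold and 3.46-fold. Within the GFP-negative fraction, CTR exceeded RA by 8.59-fold (4.201 to 18.1), in the library where the eye and neural markers were also highest, and the part of these cells was not tested. FGF21, the liver hormone of fasting, had at most 5 reads in a library.

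The bases just upstream of the start site are shown for FGF23, the member with the largest RA difference in GFP-positive cells, for FGF18 and FGF7, higher in GFP-positive cells in both cultures, and for DUSP6, the feedback gene with the largest RA difference there. Each is the 250 bases before the start of the canonical GENCODE transcript in GRCh37, read 5′ to 3′ on the strand of the gene. Capitals mark the letters AGGTCA, or their reverse complement TGACCT, the half-site that retinoid receptors and other nuclear receptors can bind.
FGF23, chr12:4488879-4489128, minus strand: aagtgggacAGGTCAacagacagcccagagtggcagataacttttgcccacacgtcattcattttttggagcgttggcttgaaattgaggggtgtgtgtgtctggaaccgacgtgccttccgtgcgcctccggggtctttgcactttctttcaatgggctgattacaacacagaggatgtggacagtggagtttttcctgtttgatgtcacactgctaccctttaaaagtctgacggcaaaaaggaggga
FGF7, chr15:49715189-49715438, plus strand: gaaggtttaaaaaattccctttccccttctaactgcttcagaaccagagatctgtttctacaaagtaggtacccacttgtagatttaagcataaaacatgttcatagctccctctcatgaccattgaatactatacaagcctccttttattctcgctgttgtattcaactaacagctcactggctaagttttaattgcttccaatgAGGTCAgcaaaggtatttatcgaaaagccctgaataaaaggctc
FGF18, chr5:170846401-170846650, plus strand: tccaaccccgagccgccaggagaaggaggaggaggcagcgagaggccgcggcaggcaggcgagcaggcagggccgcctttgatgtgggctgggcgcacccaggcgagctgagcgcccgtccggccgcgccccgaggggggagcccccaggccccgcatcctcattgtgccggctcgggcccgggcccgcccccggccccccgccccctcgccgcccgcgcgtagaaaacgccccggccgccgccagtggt
DUSP6, chr12:89746279-89746528, minus strand: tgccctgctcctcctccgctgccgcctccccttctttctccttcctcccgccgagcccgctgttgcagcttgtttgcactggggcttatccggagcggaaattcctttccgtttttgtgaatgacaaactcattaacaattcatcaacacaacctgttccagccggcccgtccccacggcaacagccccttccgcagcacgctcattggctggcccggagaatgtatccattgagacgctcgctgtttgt
The half-site begins at position -241 of FGF23 and at position -44 of FGF7, counted from the start site, and the windows of FGF18 and DUSP6 do not hold these letters. Among all 37 members, 3 windows held AGGTCA on either strand (FGF6, FGF7 and FGF23), where 9.82% of the 19342 windows of this length at protein-coding genes did. Repeats of the half-site spaced by 5 or 2 bases, searched as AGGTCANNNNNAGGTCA and AGGTCANNAGGTCA, occurred in 0 of the 37 member windows. They occurred in 0 of all 19342 windows too, so that their absence is not particular to the members. CCGGAA, the core that ETS factors such as ETV4 and ETV5 bind, was in the windows of 4 members (SPRY2, FGF13, FGFR1 and FGFRL1) and in 19.4% of all windows. A match of letters is a description and no binding site, and DNA further away was not searched.

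Among the 4 intracellular FGFs, which are not secreted and instead bind the tails of voltage-gated sodium channels and help to set excitability, FGF13 had the highest level per kilobase in 3 of the 4 libraries, and FGF11 in CTR GFP-negative cells. That order rests on canonical transcripts of 19575 bases for FGF13 and 2578 for FGF11, which may differ from the exons counted. By CPM FGF13 was the higher there, at 30.0 against 6.18. The levels of FGF13 were 83.7 CPM in RA and 120.1 CPM in CTR GFP-positive cells, and 23.7 CPM in RA and 30.0 CPM in CTR GFP-negative cells, and both GFP-positive libraries stood above both GFP-negative ones. The excess was 4.00-fold (3.38 to 4.77) in CTR and 3.54-fold (3.23 to 3.88) with RA, while the RA differences were -0.52 and -0.33 on the log2 scale. FGF11 had 7.59 CPM in RA and 7.92 CPM in CTR GFP-positive cells, and 2.61 CPM in RA and 6.18 CPM in CTR GFP-negative cells. RA GFP-negative cells stood lowest and the other 3 libraries close together, so that FGF11 was 2.91-fold (2.20 to 3.89) higher in GFP-positive cells with RA and 0.31 apart on the log2 scale in CTR. Among GFP-negative cells its CTR level was 2.37-fold (1.47 to 3.71) above RA. That log2 difference of -0.99 lay just under the limit and ran from -1.36 to -0.55 under other settings. Exons of neighbouring genes cover 82.1% of the exon bases of FGF11, which leaves its level uncertain. FGF12 was sparse, with 15 reads in each GFP-positive library, 41 in RA and 12 in CTR GFP-negative cells, and was lower in GFP-positive cells in CTR (log2 difference -1.22). FGF14 remained below 1 CPM.

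Of the 5 receptors, 4 were lower in the GFP-positive fraction in CTR, where 17.0% of all genes were, and 3 were with RA, where 14.1% of all genes were. No receptor was higher in GFP-positive cells by the limit. FGFR1, the receptor of mesenchyme and heart, had 87.3 CPM in RA and 71.3 CPM in CTR GFP-positive cells, and 198 CPM in RA and 139.7 CPM in CTR GFP-negative cells. FGFR2, which in its splice forms serves epithelium or mesenchyme, had 63.2 CPM in RA and 41.9 CPM in CTR GFP-positive cells, and 61.7 CPM in RA and 96.0 CPM in CTR GFP-negative cells. The GFP-negative excess of FGFR1 was 2.27-fold (2.16 to 2.38) with RA and 1.96-fold (1.79 to 2.14) in CTR, just under the limit on the log2 scale (-0.96). For FGFR2 it was 2.29-fold (2.05 to 2.56) in CTR, and with RA the fractions were level (log2 difference 0.03). Counts per gene do not separate the splice forms.

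FGFR3 and FGFR4 had the largest receptor differences between fractions. FGFR3, a brake on the growth of cartilage, had 17.8 CPM in RA and 32.3 CPM in CTR GFP-positive cells, and 129 CPM in RA and 102 CPM in CTR GFP-negative cells. Both GFP-negative libraries stood above both GFP-positive ones, by 3.16-fold (2.82 to 3.53) in CTR and 7.22-fold (6.56 to 7.97) with RA. FGFR4 (ENSG00000160867), the receptor of liver and other endoderm, had 4.08 CPM in RA and 2.51 CPM in CTR GFP-positive cells, and 59.2 CPM in RA and 7.88 CPM in CTR GFP-negative cells. A single library, that of RA GFP-negative cells, stood apart from the other 3. There FGFR4 was 7.51-fold (5.42 to 10.7) above CTR GFP-negative cells and 14.5-fold (11.9 to 17.8) above RA GFP-positive cells. The sum of the endoderm markers was 6.18-fold higher in the same library than in CTR GFP-negative cells. Its members differed widely, with CDH1 at 146 against 122 CPM and AFP at 465 against 2.98 CPM. The part of these cells in the FGFR4 level was not tested.

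FGFRL1, a receptor without a kinase domain, had 68.8 CPM in RA and 62.2 CPM in CTR GFP-positive cells, and 84.8 CPM in RA and 128 CPM in CTR GFP-negative cells, highest in CTR GFP-negative cells, with a log2 difference of -1.03 between fractions in CTR. No receptor passed the limit between RA and CTR in GFP-positive cells, where the differences ran from -0.82 for FGFR3 to 0.58 for FGFR2. Per kilobase of transcript, FGFR1 took 44.5% and 41.9% of the summed level of FGFR1 to FGFR4 in RA and CTR GFP-positive cells and 35.8% and 34.3% in GFP-negative cells. FGFR2 took 39.7% and 30.3% of it in GFP-positive cells, again RA first. The share of FGFR4 was 19.7% in RA GFP-negative cells and between 2.72% and 3.82% elsewhere. By this measure FGFR1 came first in all 4 libraries, with FGFR3 close to it in CTR GFP-negative cells at 33.1%.

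**Figure D3:**
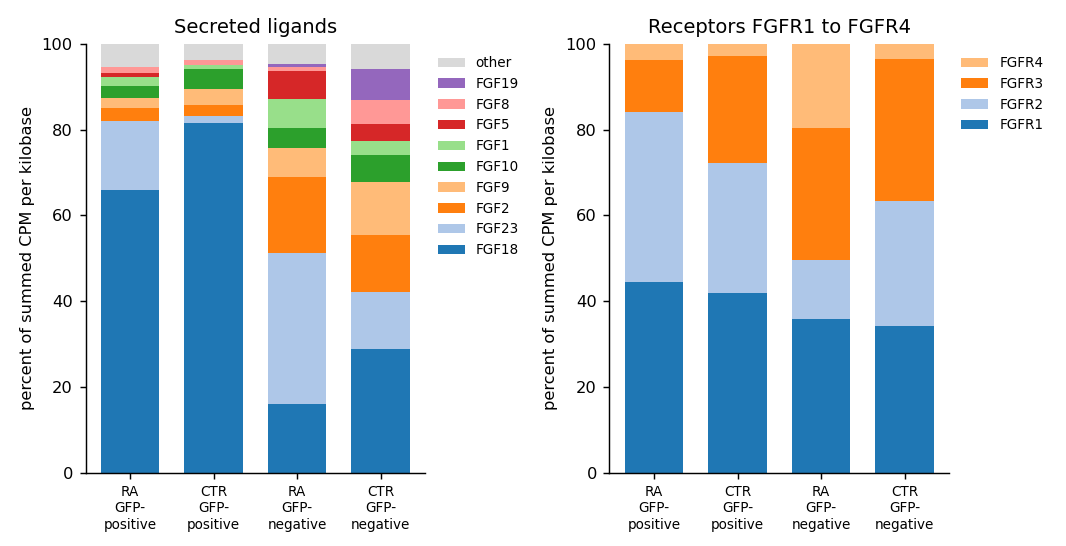
Share of each gene in the summed level of the secreted ligands and of FGFR1 to FGFR4, in percent of CPM per kilobase of canonical transcript, as stacked bars for the 4 libraries, with minor ligands joined as other. FGF18 makes up 65.8% and 81.6% of the ligand sum in RA and CTR GFP-positive cells, and FGFR4 19.7% of the receptor sum in RA GFP-negative cells.

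Among the feedback and target genes, 4 of the 9 with at least 1 CPM were higher with RA in GFP-positive cells (DUSP6, SPRY4, ETV5 and ETV4) and none was lower by the limit, with a median log2 difference of 0.80, where 5.09% of all genes were higher and 2.12% lower. By sign, 6 differences were above 0 and 3 below. The latter were SPRY2 (-0.37), SPRED3 (-0.51) and SPRED1 (-0.16), with intervals that leave out a ratio of 1. In GFP-negative cells 1 of 9, ETV4, was higher, with a median of 0.08, where 8.69% of all genes were higher. Whether the fractions differed in this was not tested. Also higher with RA in GFP-positive cells were the sums of the mesenchyme (3.86-fold), endoderm (2.93-fold) and pluripotency markers (9.03-fold). Few reads lay behind the last in CTR, where POU5F1 had 1, NANOG 0 and LIN28A 6. Within the endoderm sum AFP had 604 reads with RA and 8 in CTR, and CDH1 446 and 236. The part of these cells in the levels of this group was not tested.

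DUSP6 (ENSG00000139318), the cytoplasmic phosphatase that switches off ERK, had 29.4 CPM in RA and 10.6 CPM in CTR GFP-positive cells, and 38.6 CPM in RA and 43.2 CPM in CTR GFP-negative cells. CTR GFP-positive cells stood apart as the lowest library. The RA level there was 2.76-fold (2.41 to 3.16) above CTR (log2 difference 1.38), while among GFP-negative cells the ratio of RA to CTR was 0.892 (0.767 to 1.04), with 1 inside the interval. Of the exon bases of DUSP6, 28.6% lie opposite another gene that has no row in the table. SPRY4, a sprouty inhibitor located at chr5:141689992-141706020, had 49.6 CPM in RA and 18.9 CPM in CTR GFP-positive cells, and 49.0 CPM in RA and 46.2 CPM in CTR GFP-negative cells. Again CTR GFP-positive cells were the low library and the other 3 had overlapping intervals. The RA level was 2.62-fold (2.37 to 2.90) above CTR in GFP-positive cells, and the same ratio among GFP-negative cells was 1.06 (0.918 to 1.23). In CTR both DUSP6 and SPRY4 were lower in GFP-positive cells, by 4.06-fold (3.38 to 4.87) and 2.44-fold (2.08 to 2.87).

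ETV5, an ETS transcription factor induced by FGF, had its highest level in RA GFP-positive cells. It had 23.9 CPM in RA and 9.88 CPM in CTR GFP-positive cells, and 13.4 CPM in RA and 13.0 CPM in CTR GFP-negative cells. RA exceeded CTR by 2.42-fold (2.10 to 2.80) in GFP-positive cells, and the ratio of RA to CTR was 1.03 (0.782 to 1.37) in GFP-negative cells, with 1 inside the interval. With RA the GFP-positive level was 179% of the GFP-negative level, that of SPRY4 101% and that of DUSP6 76.1%. The sum of the mesenchyme markers, which was also higher with RA in GFP-positive cells, stood at 24.5%, and their part in these levels was not tested. ETV4, its close relative, had 1.61 CPM in RA and 0.279 CPM in CTR GFP-positive cells, and 10.4 CPM in RA and 2.34 CPM in CTR GFP-negative cells. RA GFP-negative cells were the high library, and the CTR GFP-positive value rests on 8 reads. Its RA difference was 1.03 in GFP-positive cells, where it ran from 0.32 to 1.81 under other settings, and 1.78 in GFP-negative cells, where it passed the limit throughout. With RA the GFP-positive level of ETV4 was 15.4% of the GFP-negative level, beside 24.5% for the mesenchyme sum, whose members ran from 7.42% to 213%, and 9.72% for the endoderm sum, which was also highest in RA GFP-negative cells. The part of these cells was not tested.

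**Figure D4:**
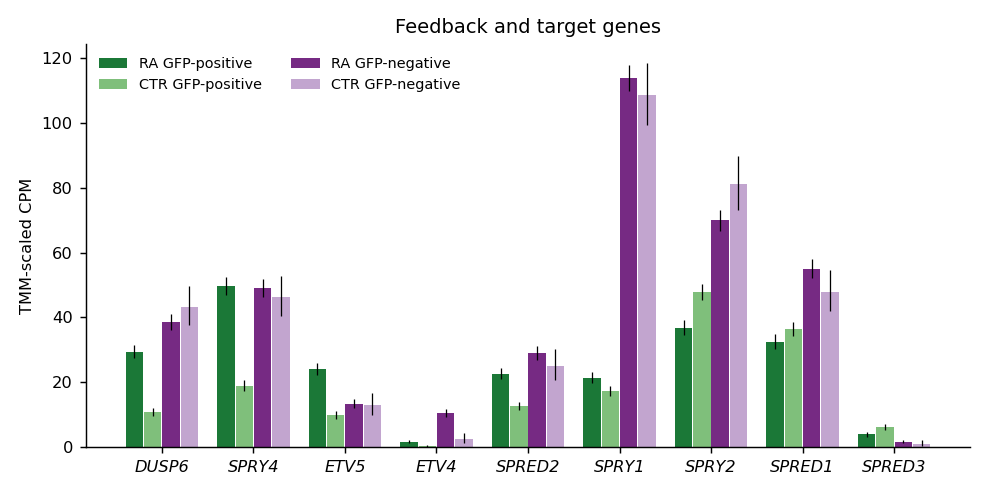
Level in CPM of the 9 feedback and target genes with at least 1 CPM, 1 bar for each library from 0, with exact Poisson 95% intervals as lines. For DUSP6, SPRY4 and ETV5 the CTR GFP-positive library is the lowest, at 10.6, 18.9 and 9.88 CPM.

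The remaining members of the group followed other orders. SPRY1, another sprouty inhibitor, had 21.4 CPM in RA and 17.3 CPM in CTR GFP-positive cells, and 114 CPM in RA and 109 CPM in CTR GFP-negative cells. Both GFP-negative libraries exceeded both GFP-positive ones, by 6.27-fold (5.53 to 7.11) in CTR and 5.33-fold (4.87 to 5.84) with RA, and RA and CTR differed by 0.29 and 0.07 on the log2 scale. SPRY2 had 36.8 CPM in RA and 47.8 CPM in CTR GFP-positive cells, and 70.0 CPM in RA and 81.1 CPM in CTR GFP-negative cells. SPRED1 had 32.5 CPM in RA and 36.4 CPM in CTR GFP-positive cells, and 55.0 CPM in RA and 47.9 CPM in CTR GFP-negative cells. Both genes were somewhat higher in the GFP-negative fraction without reaching the limit. SPRED2 had its lowest level, 12.5 CPM, in CTR GFP-positive cells and 22.6, 29.0 and 25.1 CPM in RA GFP-positive, RA GFP-negative and CTR GFP-negative cells, with an RA difference of 0.80 in GFP-positive cells. SPRED3 ran the other way, with 3.93 and 6.002 CPM in RA and CTR GFP-positive cells against 1.52 and 0.852 CPM in GFP-negative cells, the last from 4 reads. It was 7.05-fold (2.70 to 26.2) higher in GFP-positive cells in CTR. SPRY3 had at most 1 read in a library.

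**Figure D5:**
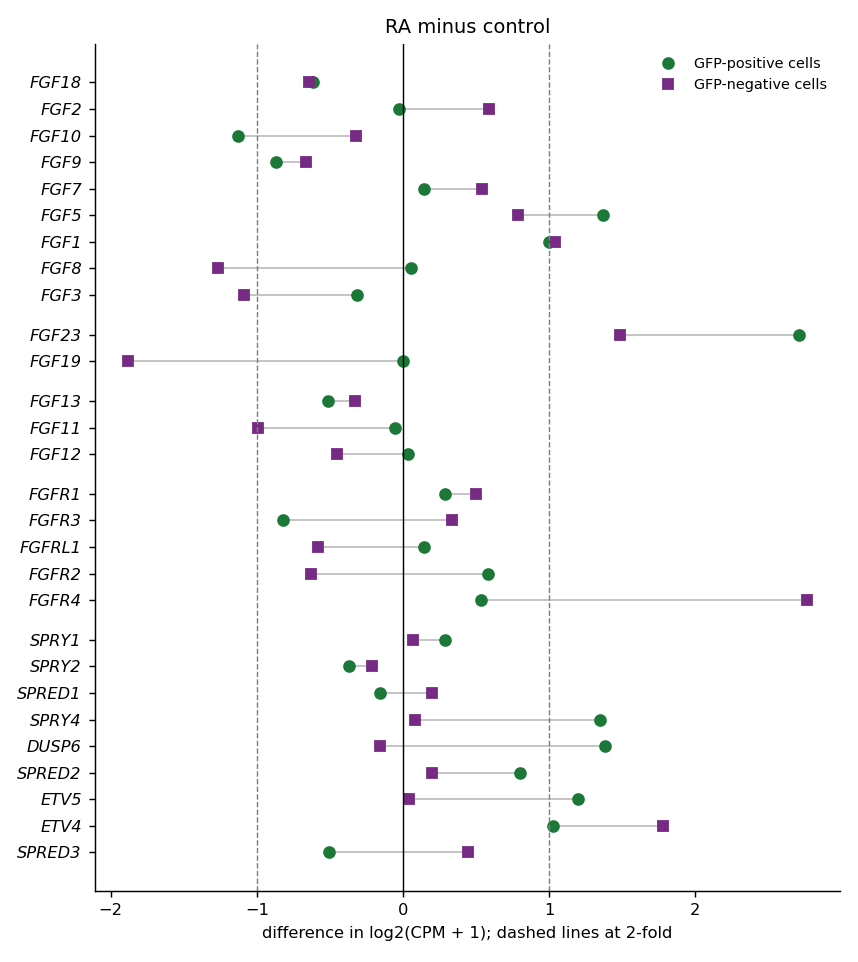
Difference of log2(CPM + 1) between RA and CTR for the same 28 members, in the GFP-positive (circles) and the GFP-negative (squares) fraction, with dashed lines at the 2-fold limit. FGF23 (2.71) leads in GFP-positive cells and FGFR4 (2.76) in GFP-negative cells, and DUSP6, SPRY4 and ETV5 lie past the limit in GFP-positive cells only.

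Other genes of the pathway were counted from 3 lists. Of 15 further genes that respond to ERK, all with at least 1 CPM, 7 were higher with RA in GFP-positive cells and none was lower, with a median log2 difference of 0.93, where 5.09% of all genes were higher and 2.12% lower. In GFP-negative cells 2 were higher and 1 was lower, with a median of 0.57, where 8.69% of all genes were higher and 7.61% lower. PHLDA1, an ERK target, had the largest difference in GFP-positive cells, at 96.4 CPM with RA and 19.4 CPM in CTR (log2 difference 2.26). The immediate early gene FOS had 1424 CPM in RA and 689.9 CPM in CTR GFP-positive cells, and 1513 CPM in RA and 788 CPM in CTR GFP-negative cells, with log2 differences of 1.04 and 0.94 between RA and CTR. IL17RD, an inhibitor of FGF signalling, was the gene lower with RA in GFP-negative cells, with log2 differences of -0.93 in GFP-positive cells and -1.20 there. The sums of the mesenchyme, endoderm and pluripotency markers were also higher with RA in GFP-positive cells, 3.86-fold, 2.93-fold and 9.03-fold. The last fold rests on few reads, with a sum of 0.244 CPM in CTR. Of the 7 genes of the list higher with RA in GFP-positive cells, PHLDA1, LIF, DUSP4, MYC and EGR2 were lower in GFP-positive than GFP-negative cells in CTR. Their log2 differences were -2.78, -4.12, -3.83, -2.79 and -1.37, while FOS and IER3 stood at -0.19 and -0.95. With RA the same differences between fractions were -1.20, -1.79, -2.97, -2.06 and 0.05, and -0.09 and -0.57 for FOS and IER3. The part of other cells in this list was not tested. Between fractions, 1 of the 15 was higher in GFP-positive cells in either culture, the ETS factor ETV1 (1.83 in CTR and 1.92 with RA). Of all genes, 14.1% were higher in CTR and 10.2% with RA. Lower were 7 in CTR and 6 with RA, where 17.0% and 14.1% of all genes were lower. The cytokine LIF was lowest in CTR (-4.12) and the phosphatase DUSP4 with RA (-2.97).

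The second list held 20 cytoplasmic transducers between receptor and ERK. In GFP-positive cells 1 of 20 passed the limit between RA and CTR, the adaptor GAB1, lower with RA at 82.1 CPM against 177 CPM, and in GFP-negative cells none of 20 did, where 7.21% and 16.3% of all genes did. Between fractions, 3 were higher and 2 lower in GFP-positive cells in CTR, where 31.1% of all genes passed the limit, and none passed with RA, where 24.3% did, with GAB1 at 1.82 and 0.91 on the log2 scale. The medians over this list, whose members lay on both sides of 0, ran from -0.04 to 0.13 in the 4 comparisons.

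The last list held 26 coreceptors, heparan sulfate proteoglycans and ligand carriers. In CTR 11 of the 22 with at least 1 CPM were lower in GFP-positive cells and none was higher, with a median log2 difference of -0.92, and with RA 12 of 24 were lower and 1 was higher, with a median of -1.03. Of all genes, 17.0% were lower and 14.1% higher in CTR, and 14.1% lower and 10.2% higher with RA. SULF1 and SULF2, enzymes that trim heparan sulfate, had log2 differences of -4.22 and -4.29 in CTR and -2.53 and -2.08 with RA. Between RA and CTR, 4 of 22 were higher with RA in GFP-positive cells and none was lower, where 5.09% and 2.12% of all genes were. Among GFP-negative cells 5 of 24 were higher and 1 was lower, where 8.69% and 7.61% of all genes were. FLRT1, a membrane protein that binds FGF receptors, led in GFP-positive cells, at 9.68 CPM with RA and 1.501 CPM in CTR. GPC3, a glypican, was higher with RA in both fractions (2.01 and 1.56), and FGFBP3, which releases FGFs from the matrix, was lower with RA in GFP-negative cells, at 11.9 against 72.0 CPM, as the eye and neural markers were, whose part was not tested. SULF1, SULF2 and GPC3 were among the 4 that were higher with RA in GFP-positive cells, where the mesenchyme markers were also higher, and the part of mesenchyme in these differences was not tested.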

How the data were processed

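The 4 libraries were made from RNA of sorted cells. After quality trimming of the read pairs (SICKLE), the authors mapped them by GSNAP to a modified hg19, with unique alignments kept, and used HTSeq-count 0.6.1p1 for Ensembl genes, ignoring strand and in intersection-nonempty mode. The deposited values are these raw counts. The Ensembl release is not given in the sources used here. Keeping unique alignments undercounts genes with near-identical copies, and counting without strand leaves out or mixes reads where genes of both strands overlap. On either strand, 10 members share exon bases with another gene of the table.

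Members were found by Ensembl identifier in the GENCODE annotation lifted to GRCh37, which named 55538 (92.2%) of the 60234 rows. TMM factors (0.951 and 1.00 for RA and CTR GFP-positive cells, 0.979 and 1.07 for GFP-negative cells) came from edgeR 4.0.16 in R 4.3.3. Differences were taken on log2(CPM + 1) and counted at 2-fold among genes reaching 1 CPM in at least 1 of the libraries. The 95% intervals are Clopper-Pearson for ratios and exact Poisson for CPM. Reads from PCR are not independent molecules, so that these intervals, like the 3-read floor, hold counting error alone. Levels of different genes were compared per kilobase of canonical transcript. No test between conditions was made, with 1 library each. The counting was tested on simulated data.

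The members, the pathway lists and the marker lists were chosen with earlier results of these data known. By the rule for naming genes, every member is accounted for, the other pathway genes are counted by list, and the genes named from a list are its extremes or were chosen after their values were seen. Alternatives were library-size, DESeq2 1.42.0 and upper-quartile scaling, sizes without mitochondrial and top 10 genes, pseudocounts of 0.25 and 5 CPM, other filters and thinned libraries.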

Additional observations from a re-analysis of the deposited data

Results flagged for a closer look

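Some receptors differed between RA and CTR in opposite directions in the 2 fractions, with 1 library each and, after TMM scaling, with intervals that leave out a ratio of 1; none of these differences reached 2-fold, and whether the fractions differ was not tested. FGFR2 had a log2 difference of 0.58 among GFP-positive and -0.63 among GFP-negative cells. For FGFRL1 the values were 0.15 and -0.59, of which the first was 0.07 with libraries scaled by size alone, a ratio of 1.05 with an interval of 0.986 to 1.12 that holds 1. For FGFR3 they ran the other way, at -0.82 and 0.33.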

How the results depend on the processing

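A paired fit of fraction with culture as an additive term, which would leave 1 residual degree of freedom, was not made. A pseudocount of 5 CPM lowered the count of members past 2-fold to 3 between RA and CTR in either fraction and to 10 between fractions in CTR. Asking for at least 10 CPM in either library left 4 between RA and CTR in GFP-negative cells, all higher, and 11 between fractions in CTR. Both settings weigh less on genes with few reads by construction. Under the other alternatives the counts stayed within 1.5 times those reported, and no difference past 2-fold changed its sign. Of 784 member values, 12 changed sign, all of differences within 0.09 of 0 on the log2 scale: SPRY1, SPRY4 and ETV5 between RA and CTR in GFP-negative cells under size-based and upper-quartile scaling, and SPRY4 and FGFR2 between fractions with RA under library size alone, SPRY4 also in thinned libraries. Scaling by library size alone, or by size without mitochondrial and top 10 genes, moved the median of all genes by -0.13 on the log2 scale between RA and CTR in GFP-negative cells. Some calls near the limit were lost: of 7 scaling, pseudocount and depth settings, FGF1 with RA in GFP-negative cells passed in 2, ETV4 with RA in GFP-positive cells in 4, and FGF10 there, FGF3 with RA in GFP-negative cells and FGFRL1 between fractions in CTR in 5. Others were gained, among them FGF11 with RA in GFP-negative cells, past the limit in all but the 5 CPM pseudocount. With RA in GFP-positive cells, FGF9 reached -1.34 in thinned libraries and FGF1 1.20 with a pseudocount of 0.25 CPM. The CTR GFP-negative library, the smallest, limits what can be seen of FGF3, FGF8, FGF16, FGF19 and SPRED3.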
